A study of Mus musculus with 4 samples.

Results

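Sp5, Axin2, Lef1, Tcf7, Nkd1, Nkd2, Notum, Apcdd1, Znrf3 and Rnf43 are genes that WNT signalling activates, and most of them encode inhibitors of the pathway that switched them on. They were followed in ureters of mouse embryos bred to lose the FGF receptor genes Fgfr1 and Fgfr2 in the ureteric mesenchyme. The rule that finds them uses gene symbols among the non-control probes and no threshold on values, but the list was drawn up with earlier results of these data known. All 10 were measured among 19365 genes. Read by the brightest probe of each gene, Sp5 was 2.72-fold higher and Axin2 1.67-fold higher in the mutant ureters. These were the members that passed the test. A second, dimmer Axin2 probe gave a log2 ratio of 0.21, against 0.74 for the brighter, and did not pass the test. Rnf43 and Tcf7 were above the control on all 4 arrays without passing it. The other 6 members did not pass it either, and by its brightest probe each was below the control on at least 1 array.

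In canonical WNT signalling, a WNT protein binds a Frizzled receptor and an LRP co-receptor on the receiving cell, and beta-catenin is no longer destroyed. Beta-catenin then enters the nucleus and acts with DNA-binding proteins of the TCF/LEF family. Many of the genes switched on in this way dampen the signal at a different step, which makes them useful as readouts of the pathway and as its brakes. In the developing ureter, WNT ligands of the inner epithelium, the urothelium, act on the neighbouring mesenchyme that later forms the smooth muscle coat.

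All embryos were of the NMRI strain and were taken at stage E14.5 (embryonic day). The mutants, called cDKO (conditional double knockout) here, carried 1 cre allele at Tbx18, Tbx18(cre/+), together with Fgfr1(fl/fl) and Fgfr2(fl/fl). The controls were Fgfr1(fl/?) and Fgfr2(fl/?), where the labels leave the second allele unnamed and list no cre allele. Floxed alleles were thus shared by both groups, while the mutants also had 1 altered copy of Tbx18, whose promoter drives cre in the ureteric mesenchyme. Receptor loss, cre and the altered Tbx18 copy cannot be told apart in these ratios. Each of 4 two-colour arrays carried cDKO RNA in one dye and control RNA in the other, at 150 ng of total RNA input. The cDKO RNA was labelled with Cy5 on replicates 1 and 3 and with Cy3 on replicates 2 and 4. Replicates 1 and 2 shared slide 1, and replicates 3 and 4 shared slide 2, which had another scan and another scanner. Both channels of an array had the same sex label, female for replicates 1 and 4 and male for replicates 2 and 3. Nothing says which animals or pools stand behind the replicates. The p-values therefore cover only how far these 4 pairs of RNA extracts differ, which may be technical.

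The signal was high enough to measure every member. Median spot intensity ranged from 138.7 to 383.4 in the cDKO channels and from 169 to 417.3 in the control channels, 64.9% to 72.6% of spots were well above background, and no spot was saturated. The number of arrays limits the precision. The log2 ratios of different arrays correlated over all genes at Pearson's r between 0.006 and 0.507, given as a description over genes that are not independent. The brightest probes of Fgfr1 (log2 ratio -0.40 ± 0.10, adjusted p = 0.117) and Fgfr2 (0.59 ± 0.07, adjusted p = 0.0356) check nothing about the deletions, because the sources used here do not give the position of the deleted part. All 12 genes listed for the ureteric mesenchyme and all 14 listed for the urothelium were measured. So were all 12 listed for kidney and nephron progenitors and all 11 erythroid markers. Passing the filter on dim probes therefore does not check the tissue label.

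The members were read by 15 different 60-base probes, of which 14 passed the filter on dim probes. The opening 30 bases of the probes behind the 2 members that passed the test are shown, with both Axin2 probes, because those differed in response. Coordinates are those of mouse build mm9, as in the scanner files. The Sp5 probe lies at chr2:70315688-70315747 (plus strand). The brighter Axin2 probe lies at chr11:108812034-108812093 and the dimmer at chr11:108803927-108803986, both on the plus strand. The brighter has a GC content of 20% and the dimmer one of 48.3%. Exon and UTR positions in this build were not used here.
Sp5 probe: cagagctacagcatggtacgtttctgtaaa
Axin2 probe, brighter: cttggtacaataattattgtaattaagaga
Axin2 probe, dimmer: tcctgggggaacagattattattgctactc

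The promoters of the members were searched for the letters that TCF/LEF proteins prefer, CTTTGAA or CTTTGAT or CTTTGTA or CTTTGTT, on both strands. These words share their opening letters and cannot overlap one another on a strand. Promoter windows of 300 bases (250 before and 50 after a gene's start, RefSeq, build GRCm38.p6) were matched by symbol for 7 of the 10 members, in 12 windows. Notum, Apcdd1 and Znrf3 were not matched. Of the 12 member windows, 2 (16.7%) held at least 1 match, against 5544 of all 32851 windows (16.9%). Windows of the same gene can overlap, as 2 of those of Lef1 do. Counted by gene, 2 of the 7 members had a match, against 1776 of 12481 tested genes with a window (14.2%). The Sp5 window held 2 matches, a count reached or passed by 637 of all windows (1.94%). They lie 222 bases before the start, where the letters CTTTGTT are on the minus strand, and 104 bases before it, where CTTTGAT is on the plus strand. The Axin2 window held no match, and of the 4 Lef1 windows 1 held CTTTGTA on the minus strand, 147 bases before the start. Sp5 and Axin2 are shown as the called members, and Lef1 as the other member with a match. The stretches before the start are printed in lower case with the matched letters in capitals, Sp5 at chr2:70474673-70474922, Axin2 at chr11:108920099-108920348 and Lef1 at chr3:131156044-131156293, all on the plus strand. A match is a stretch of letters and not a shown binding site. The GC content was 45% in the Sp5 window and 70% in the Axin2 window. How often the letters occur depends on base content, and for a gene also on its number of windows, which these shares do not take into account.
Sp5 promoter: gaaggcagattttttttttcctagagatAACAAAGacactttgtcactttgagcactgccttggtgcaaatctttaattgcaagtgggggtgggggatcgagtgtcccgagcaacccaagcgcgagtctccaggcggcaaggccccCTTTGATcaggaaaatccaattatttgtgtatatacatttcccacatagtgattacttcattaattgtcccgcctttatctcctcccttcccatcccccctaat
Axin2 promoter: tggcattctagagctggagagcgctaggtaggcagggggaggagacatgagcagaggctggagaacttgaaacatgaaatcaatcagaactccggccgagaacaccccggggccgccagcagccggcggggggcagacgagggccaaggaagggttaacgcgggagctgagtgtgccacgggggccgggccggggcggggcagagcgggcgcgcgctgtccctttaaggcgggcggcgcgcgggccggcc
Lef1 promoter: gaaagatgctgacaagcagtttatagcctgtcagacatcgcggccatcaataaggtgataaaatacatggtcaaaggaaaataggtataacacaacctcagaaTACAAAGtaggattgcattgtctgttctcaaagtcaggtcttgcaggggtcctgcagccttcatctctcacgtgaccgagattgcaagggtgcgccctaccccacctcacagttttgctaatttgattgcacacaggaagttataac

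Sp5 encodes a zinc finger transcription factor of the Sp/KLF family and is one of the genes that respond most directly to beta-catenin. Its level, the log2 intensity of a channel after scaling between arrays, was 7.61, 7.42, 8.41 and 8.28 in the control channels of replicates 1 to 4. In the cDKO channels of the same arrays it was 9.23, 9.12, 9.52 and 9.63. Every cDKO level lay above every control level, and the control levels were lower on slide 1 than on slide 2. The log2 ratio of cDKO over control was 1.62, 1.70, 1.11 and 1.36 on replicates 1 to 4. The fitted ratio was 1.45 ± 0.11 (SE, n = 4 arrays), with a 95% interval of 1.18 to 1.71 and an adjusted p of 0.0213 in limma's moderated test, so Sp5 rose. By p it stood at rank 4 of the 19365 genes. Within slides 1 and 2 the mean ratio was 1.66 and 1.23. The call was lost without a filter on dim probes (adjusted p = 0.0833), with the sex label as a term (0.0638) and within slide 2 alone (0.265). In whole ureters, a different number of cells of a type and a different amount of RNA per cell cannot be told apart.

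**Figure D1:**
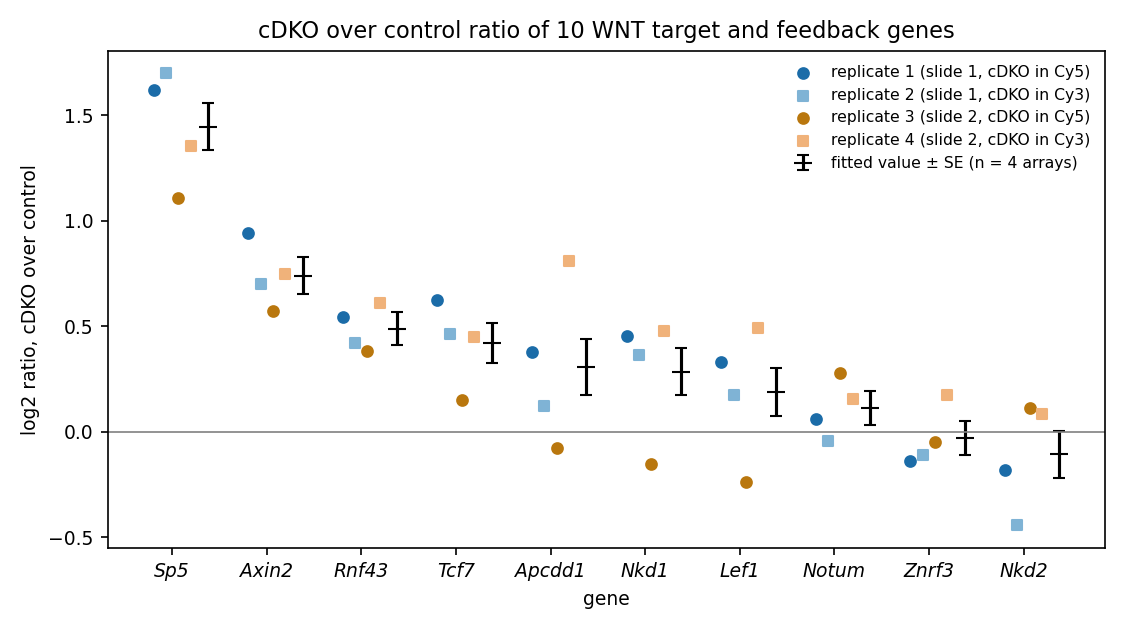
Log2 ratio of cDKO over control (vertical axis) for each of the 10 genes (horizontal axis), with 1 symbol per replicate and the fitted value with its SE over 4 arrays as a black bar. Sp5 lies between 1.11 and 1.70 and Axin2 between 0.57 and 0.94, while Nkd2 and Znrf3 have symbols on both sides of 0.

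Lef1 and Tcf7 encode TCF/LEF proteins, the DNA-binding partners of beta-catenin, and both are themselves WNT targets. Tcf7 had control levels of 8.86, 9.05, 9.40 and 9.35 and cDKO levels of 9.49, 9.51, 9.55 and 9.80 on replicates 1 to 4. The highest control level stood just under the lowest cDKO level, so the groups did not overlap. The ratio was 0.62, 0.46, 0.15 and 0.45, smallest on replicate 3. Fitted, it was 0.42 ± 0.10 with an interval of 0.19 to 0.65, and it did not pass the test (adjusted p = 0.101). With the slide as a term the adjusted p of Tcf7 was 0.0137, but with 1 degree of freedom left among the arrays, and its p-values leave out the part of the spread that lies between slides. Lef1 had ratios of 0.33, 0.17, -0.24 and 0.49, and its control level on replicate 3, at 12.31, was the highest of all 8 of its levels. The fitted ratio of Lef1 was 0.19 ± 0.11 (adjusted p = 0.414), with an interval from -0.09 to 0.46.

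Axin2 encodes a scaffold of the complex that marks beta-catenin for destruction, and its induction by WNT closes a feedback loop inside the cell. Its control levels were 8.87, 8.96, 9.35 and 9.07 on replicates 1 to 4. Its cDKO levels were 9.81, 9.66, 9.92 and 9.82. The cDKO levels spanned less than the control levels and lay above all of them. The ratios were 0.94, 0.70, 0.57 and 0.75, and the fitted ratio was 0.74 ± 0.09, with an interval of 0.53 to 0.95 and an adjusted p of 0.0338, so Axin2 rose. Within slides 1 and 2 the mean was 0.82 and 0.66. The call did not hold without replicate 1 (0.65, adjusted p = 0.102), without replicate 2 (0.75, adjusted p = 0.061), with the sex label as a term (0.0871), within slide 2 (0.350) or without the filter on dim probes (0.0864). With the median of its probes in place of the brighter one, the ratio was 0.47 (adjusted p = 0.0558).

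Nkd1 and Nkd2 encode Naked cuticle proteins, which bind Dishevelled and restrain the WNT signal in the cytoplasm. Nkd1 had ratios of 0.45, 0.37, -0.16 and 0.48 on replicates 1 to 4, positive on 3 arrays and negative on replicate 3. Its fitted ratio was 0.28 ± 0.11, with an interval of 0.02 to 0.55 and an adjusted p of 0.231. Its levels overlapped between the groups, the control level of replicate 3 (13.56) exceeding the cDKO levels of replicates 1 to 3 (13.37, 13.33 and 13.41). Nkd2 was negative on slide 1 (-0.18 and -0.44) and positive on slide 2 (0.11 and 0.09). The fitted ratio of Nkd2 was -0.11 ± 0.11 (adjusted p = 0.642), with an interval from -0.37 to 0.15. The 2 paralogs thus stood on different sides of 0 in the fit, but the difference between them was not tested.

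Notum encodes a secreted enzyme that removes the lipid WNT ligands need to bind their receptor, and Apcdd1 encodes a membrane protein that binds WNT and LRP proteins. Notum had ratios of 0.06, -0.05, 0.28 and 0.16, with control levels of 12.14, 12.20, 12.64 and 12.42 and cDKO levels of 12.20, 12.15, 12.91 and 12.58. Both groups were higher on slide 2, and the levels overlapped. Its fitted ratio was 0.11 ± 0.08 (adjusted p = 0.5), and its interval of -0.09 to 0.31 did not reach the ratio of either called gene. Apcdd1 varied most between arrays, with ratios of 0.38, 0.12, -0.08 and 0.81, an SD of 0.38. Its fitted ratio was 0.31 ± 0.13 (adjusted p = 0.274), with an interval from -0.01 to 0.63. The arrays with female labels gave the 2 highest ratios of Apcdd1 and those with male labels the 2 lowest, and the difference, male minus female, was -0.57 (unadjusted p = 0.0234, adjusted p = 1 in limma).

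Rnf43 and Znrf3 encode related transmembrane ubiquitin ligases that remove Frizzled receptors from the cell surface. Rnf43 had ratios of 0.54, 0.42, 0.38 and 0.61, the smallest spread of all 10 members (SD 0.11). Its control levels were 12.07, 12.32, 12.65 and 12.46 and its cDKO levels 12.61, 12.74, 13.03 and 13.07. The cDKO level was higher on each array, although the cDKO level of replicate 1 lay under the control level of replicate 3. The fitted ratio was 0.49 ± 0.08, with an interval of 0.30 to 0.68, and the adjusted p of 0.0532 missed the threshold of 0.05. It fell under the threshold in 5 of 17 other settings, at an adjusted p of 0.0486 with a stricter filter, 0.047 with the median of a gene's probes, 0.0386 without a dye term, 0.0493 with an intensity trend and 0.00631 with the slide as a term. Znrf3 had ratios of -0.14, -0.11, -0.05 and 0.17, with all 8 levels between 7.53 and 7.81. The fitted ratio of Znrf3 was -0.03 ± 0.08 (adjusted p = 0.877), with an interval from -0.23 to 0.17, which lies under the interval of Rnf43. The difference between the 2 ligases was not tested. The Znrf3 probe was much dimmer than that of Rnf43, and the offset of the background correction draws the ratios of dim probes toward 0. With an offset of 16 the ratio of Znrf3 was -0.04.

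**Figure D2:**
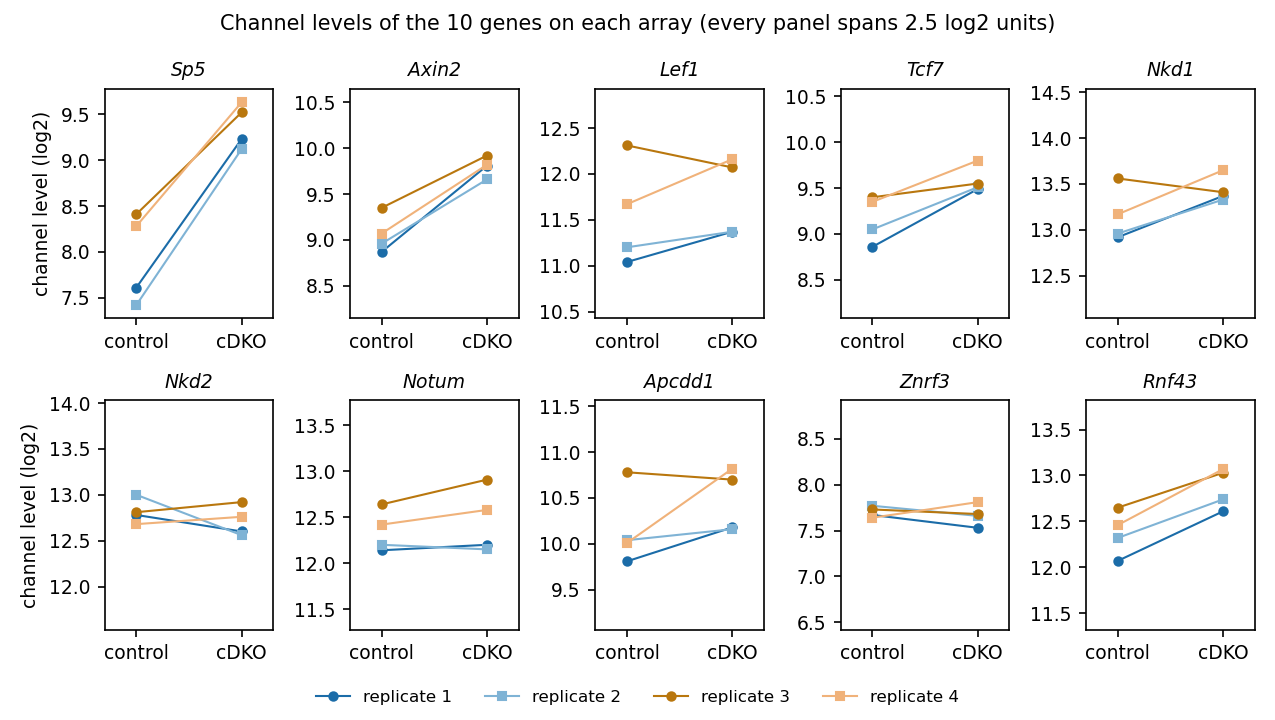
Channel level (log2, vertical axis) in control and cDKO ureters for each of the 10 genes, 1 panel per gene and 1 line per array. The lines of Sp5, Axin2, Tcf7 and Rnf43 rise on all 4 arrays, and the cDKO points lie above every control point for Sp5, Axin2 and Tcf7.

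Counted together, 2 of 10 members passed the test, both higher, and 0 were lower. Over all genes tested, 165 of 19365 (0.852%) passed it, 107 of them higher (0.553%). In limma 5 of the 10 members had an unadjusted p under 0.05 with a higher cDKO level (Sp5, Axin2, Rnf43, Tcf7 and Nkd1), against 11.7% of all genes. Sp5, Axin2, Rnf43 and Tcf7 were higher on all 4 arrays, 4 of 10 against 13.4% of all genes, and no member was lower on all 4, against 11.8%. Without overlap, all 4 cDKO levels stood above all 4 control levels for 3 of 10 members, against 4.71% of all genes. A fitted log2 ratio above 0 was found for 8 of 10 members, against 52.7% of all genes. The median log2 ratio was 0.30 over the members and 0.009 over all genes. Such counts were not particular to the members. Of the 12 genes listed for the ureteric mesenchyme, 9 were higher on all 4 arrays and 0 were lower on all 4. Of these 12, 10 had an unadjusted p under 0.05 in limma with a higher cDKO level, and their median was 0.30. The count of all genes called was 34, 56, 266 and 403 without replicates 1, 2, 3 and 4 in turn, and the count of members called was 1 without replicate 1 or replicate 2 and 2 without replicate 3 or replicate 4. The members were picked knowing earlier results of these data, so these counts are a description.

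The members did not move alike on the 4 arrays. Their median log2 ratio was 0.41, 0.27, 0.13 and 0.48 on replicates 1 to 4, and 8, 7, 6 and 10 of them were above 0. On replicate 3, which had cDKO RNA in Cy5 on slide 2, 7 of 10 members had their lowest ratio, against 28.3% of all genes. The exceptions were Notum and Nkd2, which were highest there, and Znrf3. The lowest ratio was also on replicate 3 for 10 of 12 mesenchyme markers (83.3%), 7 of 10 endothelial markers (70%) and 14 of 27 intracellular WNT components (51.9%). The endothelial median was negative on each array, so there the lowest ratio is the largest fall. Other lists differed: 1 of 10 macrophage and leukocyte markers and 1 of 11 erythroid markers were lowest there. The same held for 0 of 9 neuronal and glial, 0 of 12 kidney and nephron progenitor and 0 of 4 mesothelium markers. The mesenchyme markers had array medians of 0.38, 0.52, 0.06 and 0.41, and their part in the members' values was not tested. By slide, the members' median was 0.33 on slide 1 and 0.26 on slide 2. For no member was the effect called as unequal on the 2 slides in limma (lowest adjusted p = 0.242, 2 members at an unadjusted p under 0.05), while 173 of all genes were. These 2 were Sp5, whose ratio on slide 2 minus that on slide 1 was -0.43, and Nkd2, for which it was 0.41. In limma no member passed the test for a difference between the sex labels (adjusted p = 1 for each, 1 member at an unadjusted p under 0.05) or for a dye effect (adjusted p from 0.746 to 0.969, 0 members at an unadjusted p under 0.05). On these arrays sex and a dye bias that differs by slide cannot be told apart.

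For 5 members a second probe gave another reading of the same gene. The probes of Lef1 gave 0.19 and 0.19, although the second is split over 18162 bases of the genome and the first is not, and those of Nkd1 gave 0.28 and 0.27. The second Nkd1 probe was positive on all 4 arrays (0.40, 0.21, 0.14 and 0.34), replicate 3 included, and did not pass the test over probes (adjusted p = 0.162). The dimmer Axin2 probe, whose opening bases are printed above, gave 0.16, 0.43, -0.09 and 0.36, a fitted 0.21 ± 0.08 that did not pass the test (adjusted p over probes = 0.226). Its mean level was 7.07 in cDKO and 6.86 in control, and it was well above background on all 4 cDKO arrays but on 2 of 4 control arrays. The lowest level of any probe well above background ranged from 6.56 to 6.91 over the channels. The brighter Axin2 probe, at levels of 9.80 and 9.06, had an adjusted p of 0.0367 over probes. Of Tcf7, the second probe was well above background on 1 array in each group, missed the filter and gave 0.005 with no call. Nkd2 gave -0.11 and 0.01.

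**Figure D3:**
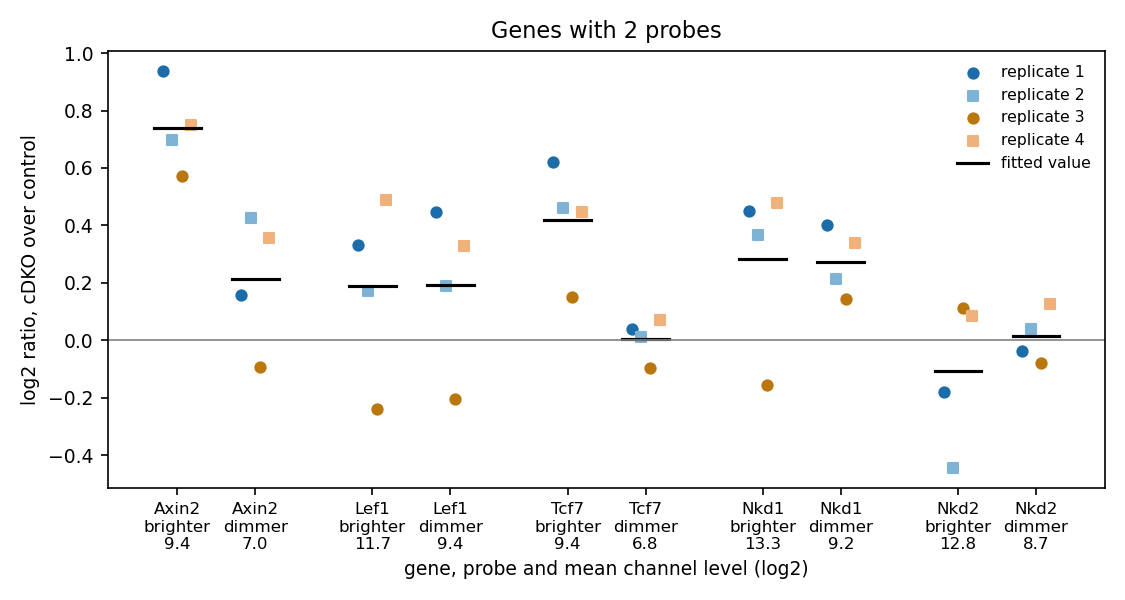
Log2 ratio of cDKO over control (vertical axis) for each probe of the 5 genes with 2 probes (horizontal axis, with the mean channel level under each name), 1 symbol per replicate and the fitted value as a bar. The pairs of Lef1 and Nkd1 have similar fitted values, while the dimmer probes of Axin2 and Tcf7 lie nearer to 0 than the brighter ones.

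The members were set beside the rest of the WNT pathway, in lists chosen by function. Of 20 other beta-catenin target genes 16 were measured, 12 were above 0, and Tnfrsf19, a receptor of the tumour necrosis factor family, was the 1 that passed the test (0.58 ± 0.07, adjusted p = 0.0351). Dkk4, Cdx1, Bambi and Fgf20 missed the filter on dim probes. The median of these targets was 0.10, below the members' 0.30. Of the 16, 6 were higher and 1 was lower at an unadjusted p under 0.05 in limma. On all 4 arrays 6 were higher and 2 were lower. Of 19 WNT ligand genes 12 were measured, 6 of them above 0 and none called (median 0.02, 3 at an unadjusted p under 0.05 in limma). Wnt9b, a ligand of nephric duct derivatives, stood at 0.89 ± 0.14 (adjusted p = 0.0524), and Wnt6 at 0.29 ± 0.08 (adjusted p = 0.14). Of 14 receptor genes 13 were measured and 10 were above 0 (median 0.21), and none was called in limma (4 at an unadjusted p under 0.05, 3 of them higher). Fzd1 stood at 0.48 ± 0.11 (adjusted p = 0.101) and Fzd10 at 0.28 ± 0.09 (adjusted p = 0.166). Of 13 secreted modulators 11 were measured and 9 were above 0 (median 0.17, 4 higher and 1 lower at an unadjusted p under 0.05 in limma). Sostdc1, an inhibitor of WNT and BMP signals, was the 1 called, at 0.53 ± 0.08 (adjusted p = 0.0482). Intracellular components were all measured (27 of 27), with 22 above 0, a median of 0.18 and none called in limma (9 higher at an unadjusted p under 0.05). Pygo1, a nuclear cofactor of beta-catenin, stood at 0.36 ± 0.08 (adjusted p = 0.1), and the corepressor gene Tle4 at 0.33 ± 0.08 (adjusted p = 0.108).

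**Figure D4:**
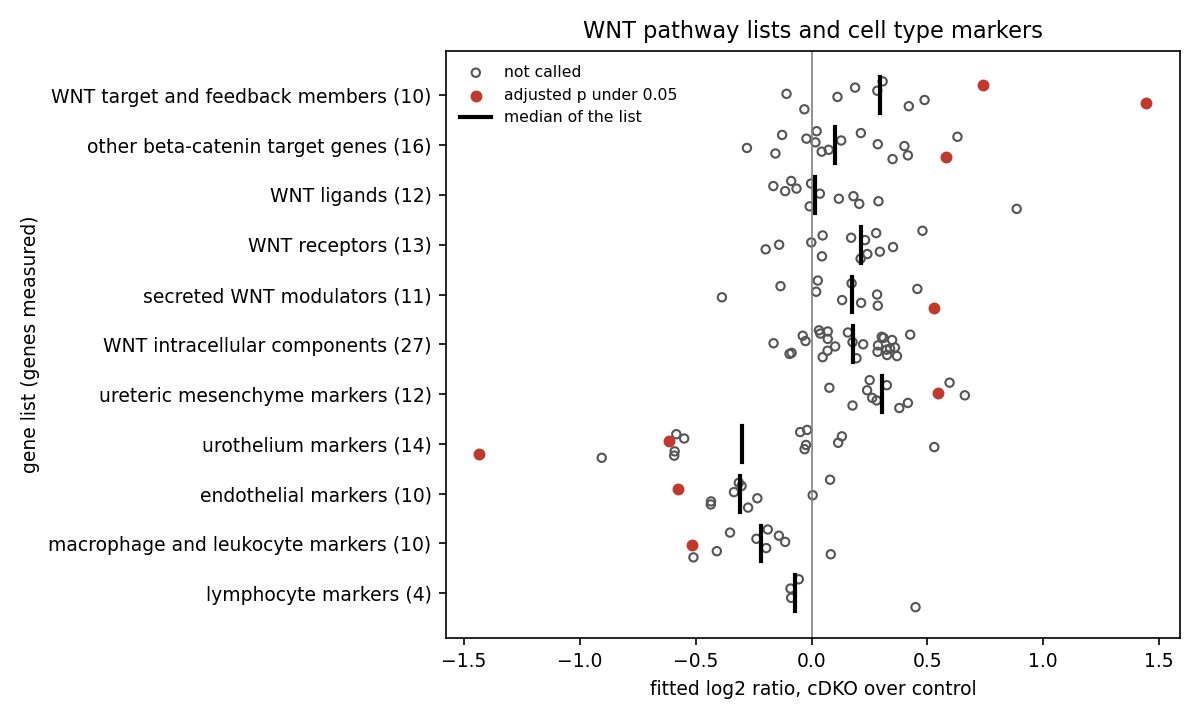
Fitted log2 ratio of cDKO over control (horizontal axis) of each measured gene in the WNT lists and the cell type marker lists (vertical axis), with called genes in red and the list's median as a bar. The medians of the members (0.30) and of the mesenchyme markers (0.30) lie to the right of 0, and those of the urothelium (-0.30) and the endothelium (-0.31) to the left.

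Markers of the cell types that a ureter can hold were read on the same arrays, with 0 to 2 genes called per list, and their part in the members' results was not tested. All 12 mesenchyme markers were above 0 (median 0.30). Tbx18 (0.26), of which the mutants had 1 altered copy, is among them. Ptch1, a receptor and target of hedgehog signals, passed the test (0.55 ± 0.07, adjusted p = 0.0401), and Foxf1 stood at 0.60 ± 0.12 (adjusted p = 0.0782). Their summed level ranged from 140000 to 202100 intensity units in cDKO and from 106500 to 181600 in control. In this and the other sums the brightest probes weigh most, and the ranges over arrays do not keep the pairing within an array. Of the urothelium markers 3 of 14 were above 0 (median -0.30), and 2 fell, Krt20 (-0.62) and Upk1b (-1.43), with summed levels of 186300 to 247000 in cDKO and 206400 to 229600 in control. Endothelial markers had 2 of 10 above 0 (median -0.31). Emcn fell (-0.58), Pecam1 stood at -0.43, and the sums were 72520 to 87410 in cDKO and 85630 to 106500 in control. Of the macrophage and leukocyte markers 1 of 10 measured was above 0 (median -0.22). Fcer1g fell (-0.52), Mrc1 stood at -0.41, and the sums were 17030 to 21140 in cDKO and 21960 to 26370 in control. Lymphocytes, which use Lef1 and Tcf7 too, had 4 of 10 markers measured (median -0.07). None was called in limma (1 at an unadjusted p under 0.05). Thy1, which other cells also express, stood at 0.45, Cd79a at -0.09, Lck at -0.09 and Cd3e at -0.06, and the others missed the filter on dim probes. The summed level of the lymphocyte markers was 16330 to 25270 in cDKO and 15750 to 17840 in control. Erythroid markers had a median of -0.28 (1 of 11 above 0), with falls of Hbb-bh1 (-0.54) and Hba-x (-0.66) and sums of 332200 to 467400 in cDKO and 442300 to 543000 in control. Neuronal and glial markers had a median of -0.02 (3 of 9 above 0), with S100b at -0.46 and Ret at 0.46, and sums of 74660 to 93400 in cDKO and 70190 to 97570 in control. Kidney and nephron progenitor markers had a median of 0.22 (10 of 12 above 0), with Jag1 at 0.32 and Pax8 at 0.47, and sums of 36460 to 44930 in cDKO and 29620 to 40140 in control. Mesothelium markers had a median of -0.46 (0 of 4 above 0). Msln fell (-0.82), Gpm6a stood at -0.36, and the sums were 15880 to 26380 in cDKO and 27310 to 33890 in control.

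The genes whose 4 ratios lay nearest to those of a called member were found by root mean square distance over the 4 arrays. Nearest to Sp5 were Cntn1 (distance 0.15), Gria1 (0.27), ccdc198 (0.42), Tfcp2l1 (0.46) and Foxl1 (0.50), none of which is in the WNT lists. Cntn1 had ratios of 1.40, 1.51, 1.13 and 1.32, and like Sp5 it was lowest on replicate 3. Nearest to Axin2 were Cntn3 (0.03), Ism1 (0.04), Plch1 (0.08), Dcdc2a (0.09) and Tox3 (0.11). Cntn3 had ratios of 0.97, 0.70, 0.54 and 0.79, close to the values of Axin2 on each array. Genes chosen for ratios like those of a called member can be expected to pass the same test, so their calls are not counted here.

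Across 17 other settings of the processing and the fit, the ratio of Sp5 stayed between 1.23 and 1.85 and was called in 14, and that of Axin2 stayed between 0.47 and 0.83 and was called in 11. Rnf43 was called in 5 and Tcf7 in 1, and no setting called another member. The calls of Sp5 and Axin2 include median centring, where every member had the same SE (0.179). In that setting a call does not use the gene's own spread over the arrays.

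**Figure D5:**
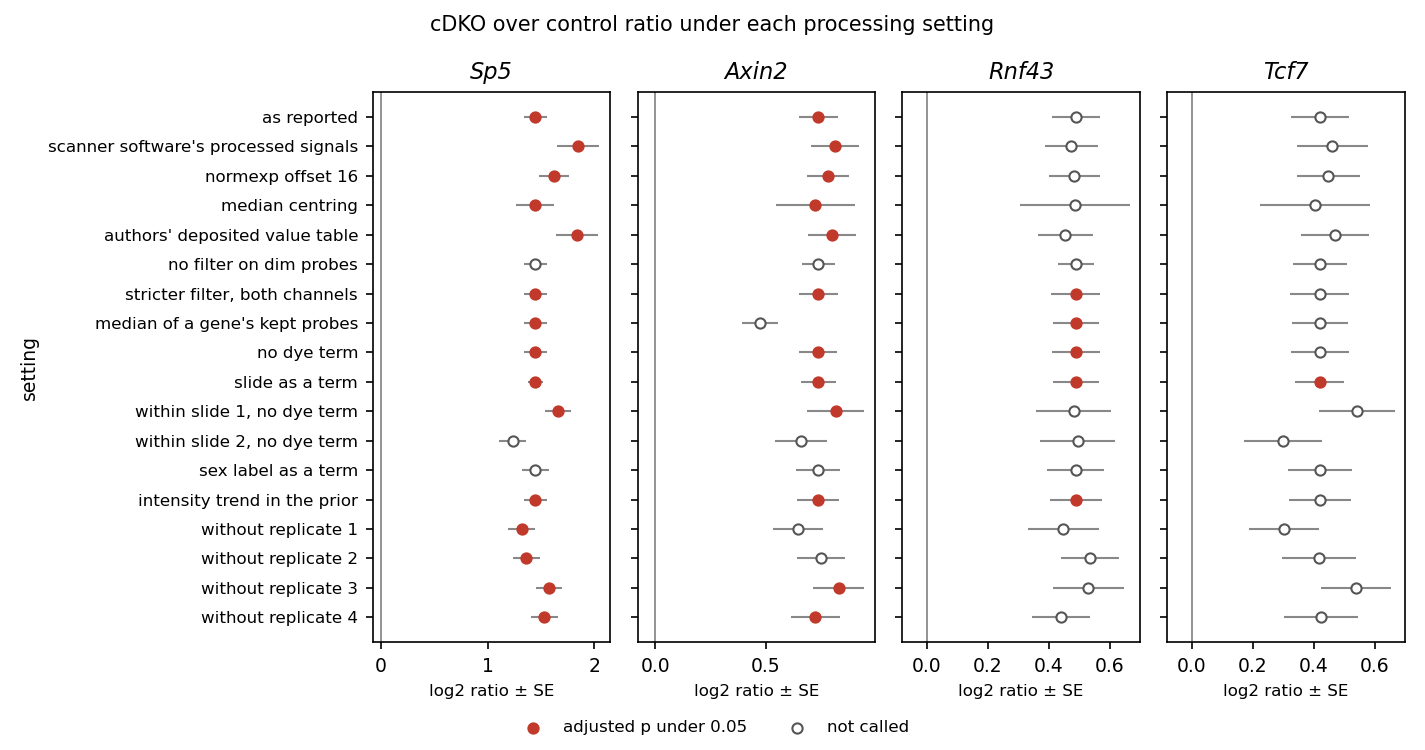
Log2 ratio of cDKO over control with its SE (horizontal axis) for Sp5, Axin2, Rnf43 and Tcf7 (1 panel each, with its own scale), as reported and under each of 17 other settings (vertical axis), with settings in red where the adjusted p was under 0.05. Sp5 is red in 14 of the 17 and Axin2 in 11, and every value of both genes lies to the right of 0.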

How the data were processed

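Gene expression was measured with 4 two-colour Agilent arrays of cDKO and control ureters. Per the file headers, the authors quantified the scans with Agilent Feature Extraction 10.7.3.1. Per channel, the deposited files hold each spot's mean intensity and its local background intensity, not normalized. Per the file headers they also hold processed intensity values and log10 ratios (red over green). A value table deposited by the authors lists a signed fold per probe, used as a score. Its sign was settled against the scanner's log ratio of red over green, with which it correlated at 0.839 and 0.838 on replicates 1 and 3 and at -0.863 and -0.843 on replicates 2 and 4, so a positive value means higher cDKO. Every column has a median of 1, and the sources used here do not give how it was centred.

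Background correction was by normexp with an offset of 50, followed by loess (span 0.3) of the log2 ratios of each array. The offset draws the ratios of dim probes toward 0, and with an offset of 16 the log2 ratio of Sp5 was 1.62. Unmarked spots of a probe were averaged. Kept probes had at least 3 of 4 spots well above background on every array, in the cDKO or in the control channel, which left 25591 of 39429 (64.9%). A gene took its brightest kept probe. Names came from the accession in a RefSeq table for 28328 probes, from a current symbol for 3400 and from a synonym for 243, and 7458 kept the name in the file. Channel levels were scaled with Aquantile after loess, and summed levels are on the linear scale.

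Ratios, signed as cDKO over control by the dye labels, were fitted with lmFit and eBayes of limma 3.58.1 in R 4.3.3, with a dye term. P-values are two-sided and adjusted over the 19365 genes by Benjamini-Hochberg, and "called" means an adjusted p under 0.05. Residual degrees of freedom were 2, and those of the prior 4.53. Errors are SE of the fit (n = 4 arrays), and intervals are at 95%. The alternatives were other background corrections and normalizations, the authors' table, other filters, other rules for several probes, other terms, single slides and leaving out each replicate.

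The members, lists and tests were chosen with earlier results of these data known. All 10 members are named. Of the other WNT lists up to 4 called genes were named, or the 2 with the smallest p, of the marker lists the 2 with the smallest p, and for each called member the 5 genes nearest by distance. Cd3e, Lck and genes of the lists that missed the filter were named after their values were seen. Tbx3 is in both the target and the mesenchyme list, and Krt19 in both the urothelium and the mesothelium list.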

Additional observations from a re-analysis of the deposited data

How the results depend on the processing

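Of all genes, 165 were called as reported. The count was 263 with a normexp offset of 16, 255 with median centring, 258 without a dye term, 272 with an intensity trend, 1 without the filter on dim probes, 2418 with the slide as a term, 551 within slide 1, 0 within slide 2 (1346 at an unadjusted p under 0.05 in limma), 2 with the sex label as a term, and 34 to 403 when 1 replicate was left out. The cause of these shifts was not tested. The count of members called was 2 as reported, 4 with the slide as a term, 0 without the filter, 0 within slide 2, 0 with the sex label as a term, and 1 to 2 when 1 replicate was left out. Between 8 and 10 members were above 0 in all 17 settings, and the members' median ranged from 0.18 to 0.43. The direction turned for 2 members that were never called: Nkd2 was 0.098 within slide 2 and 0.025 without replicate 2, and Znrf3 was 0.063 and 0.04 in the same settings. Over the fits that left out 1 replicate, Nkd2 ranged from -0.24 to 0.025 and Znrf3 from -0.102 to 0.04. In the same fits Lef1 ranged from 0.045 (without replicate 1) to 0.33, Nkd1 from 0.133 (without replicate 1) to 0.436, Apcdd1 from 0.135 (without replicate 4) to 0.479 and Notum from 0.058 (without replicate 3) to 0.166, none of them called. The cDKO effect differed between slides for 173 genes as reported and for 6 without the filter. Fits within a slide had no dye term, and fitting the slide left 1 residual degree of freedom. No member probe was saturated. The dimmer probes of Axin2 and Tcf7 lay near background, which limits what they can show.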
